A study of Mus musculus with 2 samples.

Results

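Hoxa9, Hoxa10, Hoxa11, Hoxa13 and Evx1 form the posterior end of the mouse Hoxa cluster and its immediate neighbourhood on chromosome 6. These 5 genes, of 21887 protein-coding genes in all, were taken by name, together with the 4 intervals that separate them. A peak was assigned to a gene when it overlapped the annotated gene span or the 2 kb on either side. The data are 1 list of peaks of H3K27me3 (histone H3 trimethylated at lysine 27) from ChIP-seq, the sequencing of DNA pulled down with an antibody to the mark. Both libraries, 1 ChIP and 1 input, came from sciatic nerve of 8-week-old male mice (C57/BL6) with no stated treatment or genetic change. Neither has a replicate, no sorting of cells is described, and the sources used here do not say how many animals were pooled.

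Polycomb repressive complex 2 places H3K27me3 on chromatin, and the mark is associated with genes that stay silent. Hox genes encode homeodomain transcription factors that give cells along the body and limb axes their position, and their order on the chromosome follows the order in which they act from head to tail. The posterior members act in the trunk end, limbs, kidney and genital tract. Evx1, a homologue of the fly gene even-skipped, lies beyond the posterior end of the cluster and acts in gastrulation and in spinal interneurons. The nerve trunk holds Schwann cells, fibroblasts, vessels, immune cells and axons. A low value in such a mixture can come from fewer cells that carry the mark or from less mark per cell, and these cannot be told apart.

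The promoters, the 250 bases before and 50 bases after each annotated start, are shown first for 4 genes because their starts sit in the peaks in different ways. Sequences are from RefSeq (GRCm38.p6, the build also called mm10) and run 5′ to 3′ on the strand of the gene, with the dinucleotide CG in capitals. All 5 genes matched the table, Hoxa10 with 2 starts. The Hoxa11 and Evx1 windows lay wholly inside peaks. Of the Hoxa9 window, letters 211 to 300 lay in a peak, which takes in the start itself. Of the Hoxa13 window, letters 1 to 172 lay in a peak that stopped short of the start.
Hoxa9 (chr6:52227321-52227620, minus strand): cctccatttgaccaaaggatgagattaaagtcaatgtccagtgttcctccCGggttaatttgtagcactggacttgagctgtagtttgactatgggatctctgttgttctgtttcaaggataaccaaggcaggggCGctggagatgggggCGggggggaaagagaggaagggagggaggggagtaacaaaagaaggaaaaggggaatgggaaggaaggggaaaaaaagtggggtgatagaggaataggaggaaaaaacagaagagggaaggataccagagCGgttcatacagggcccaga
Hoxa11 (chr6:52245761-52246060, minus strand): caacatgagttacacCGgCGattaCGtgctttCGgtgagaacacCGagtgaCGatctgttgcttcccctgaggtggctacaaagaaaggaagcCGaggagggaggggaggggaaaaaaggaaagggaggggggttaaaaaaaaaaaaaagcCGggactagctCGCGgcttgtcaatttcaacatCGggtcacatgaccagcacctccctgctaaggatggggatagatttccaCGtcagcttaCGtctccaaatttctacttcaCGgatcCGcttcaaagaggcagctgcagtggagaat
Hoxa13 (chr6:52260831-52261130, minus strand): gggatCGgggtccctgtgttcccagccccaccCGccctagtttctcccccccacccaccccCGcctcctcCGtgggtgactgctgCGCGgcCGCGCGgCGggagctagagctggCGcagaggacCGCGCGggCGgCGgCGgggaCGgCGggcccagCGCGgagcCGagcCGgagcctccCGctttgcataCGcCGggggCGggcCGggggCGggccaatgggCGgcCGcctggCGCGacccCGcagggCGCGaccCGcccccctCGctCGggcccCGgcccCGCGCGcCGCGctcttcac
Evx1 (chr6:52313248-52313547, plus strand): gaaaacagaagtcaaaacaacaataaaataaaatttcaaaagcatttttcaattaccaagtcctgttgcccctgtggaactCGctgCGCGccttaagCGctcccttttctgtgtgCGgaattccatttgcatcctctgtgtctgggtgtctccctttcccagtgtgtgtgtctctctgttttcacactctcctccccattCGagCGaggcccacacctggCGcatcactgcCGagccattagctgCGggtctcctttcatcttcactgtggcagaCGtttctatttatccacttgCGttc

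All 5 genes carried the mark, in 13 peaks that touched a gene or its flanks and 11 further peaks that lay only between the genes. By the same rule 10.5% of protein-coding genes carried a peak. At least 50% of the span with flanks was covered for 4 of the 5, Hoxa9 being the exception, against 0.795% of protein-coding genes. No gene body of the 5 was covered from end to end, as 0.27% of protein-coding genes were. Covered shares ran from 39.9% at Hoxa9 to 90.6% at Evx1 with a median of 59.5%, while the median over all protein-coding genes was 0% and that over the 2302 genes with a peak was 3.71%. Shares depend on gene length, since a given peak covers less of a longer span. The 5 flanked spans ran from 6028 to 13658 bp, and the general values are over genes of all lengths.

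Reads are the authors' peak scores divided by the step of 2.5735 that separates them. The 24 peaks from the Hoxa9 flank to the Evx1 flank held 1542 reads, 0.833% of the 185225 reads in all 6018 peaks. They were wider than most of the list, with a median width of 1952 bp against 643 bp, and 12 of them (50.0%) exceeded 2 kb, as did 14.6% of the list. Reads per kb of peak differed less, from 17.5 to 33.0 with a median of 23.8, against a median of 21.0 over the list. Among peaks over 2 kb the medians were 25.6 here and 23.4 over the list. Listed peaks start at 10 reads and 500 bp, which leaves density less room to vary than width. The smaller contrast in density is therefore not read as a trait of these peaks. At the low end, 6 of the 24 peaks had the shortest width of the list, 500 bp, and held 10 to 12 reads. Over the whole list, 41.6% of peaks had that width. For 10 reads the exact Poisson limits at 95% are 4.80 and 18.4, and these, like all intervals here, cover counting error only.

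**Figure D1:**
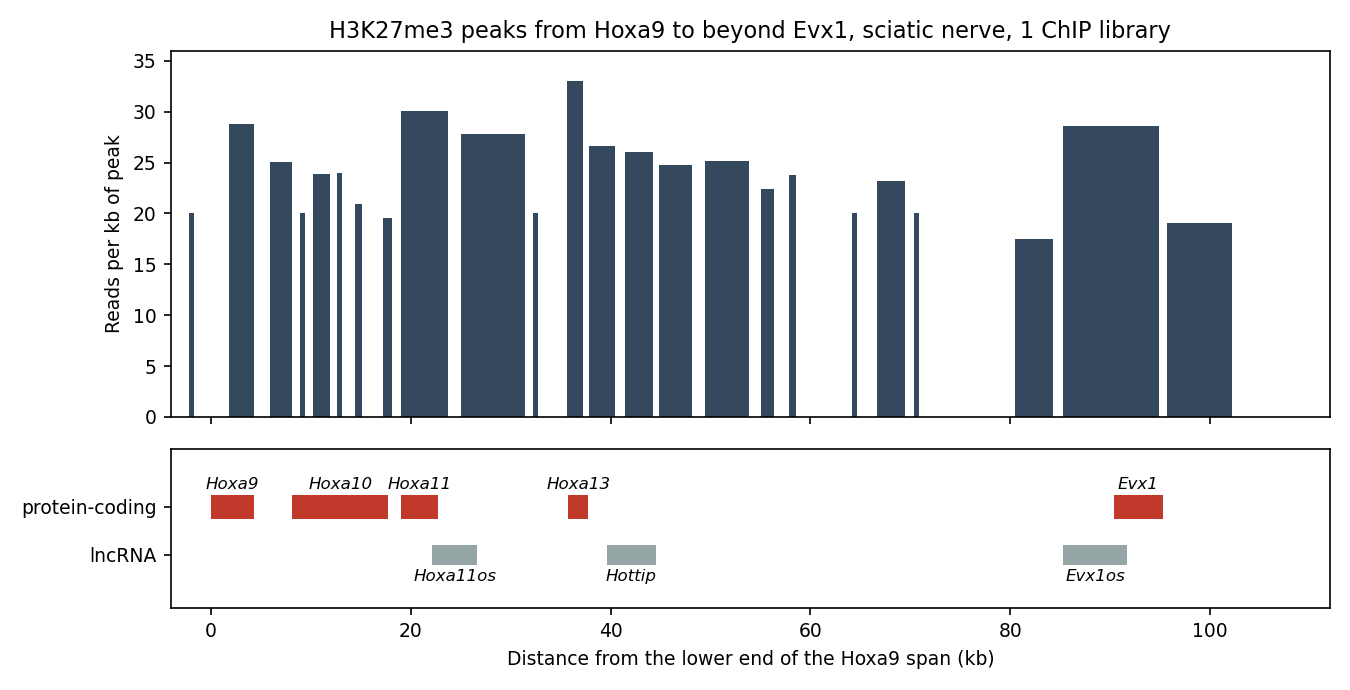
Reads per kb of each H3K27me3 peak (bar height, bar width to scale) against the distance in kb from the lower end of the Hoxa9 span, above the spans of the 5 genes (red) and 3 long non-coding RNA genes (grey). Peaks are dense from Hoxa11 to beyond Hottip, sparse in the middle of the Hoxa13 to Evx1 interval, and widest over Evx1, where 1 peak spans 9597 bp.

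Hoxa9, which acts in blood progenitors as well as in the axis, had the lowest covered share of the 5. Its span (chr6:52223097-52227370) with flanks met 3 peaks with 140 reads in all, of which 90.7 fell inside by the share of their bases. That equals 11.0 reads per kb (8.86 to 13.5). One peak of 2567 bp with 74 reads covered the promoter-proximal 59.1% of the gene body, from 40 bases upstream of the start inwards. The last 1747 bp of the gene, its 3′ end, lay in an uncovered stretch of 3423 bp. Toward Hoxa7 the only peak was one of 500 bp with 10 reads.

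Hoxa10, which acts in the uterus and hindlimb, was covered in pieces. Its span (chr6:52231197-52240854) with flanks met 7 peaks, the most of the 5 genes, and the body had the lowest covered share, 40.4%. The body had 5 uncovered stretches of 753 to 2112 bp, among peaks that held 10, 40, 12, 14 and 17 reads. Both annotated starts lay in peaks. The upstream start was in a peak of 868 bp with 17 reads and the inner one in a peak of 1675 bp with 40 reads, 15 bases from its edge. The density over span and flanks was 12.0 reads per kb (10.2 to 14.0), and much of it lay in the flanks. Downstream, 99.9% of the flank was covered by the peak between Hoxa10 and Hoxa9, and upstream the flank took in part of the Hoxa11 peak.

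Hoxa11, needed with its paralogs for forelimb, kidney and uterus, was the most completely covered gene body of the 5. A single peak of 4617 bp with 139 reads (117 to 164) covered 98.7% of the body (chr6:52242105-52245810), leaving 49 bp at the 3′ end. The span with flanks held 20.2 reads per kb (17.2 to 23.7). The peak ranked 232 of 6018 by width and 180 by reads.

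Hoxa13, the last gene of the cluster, which patterns the digits and the genitourinary tract, was the only one of the 5 whose outermost start lay outside every peak. A peak of 1667 bp with 55 reads, the densest of the stretch at 33.0 reads per kb, covered the rest of the body (chr6:52258853-52260880). A peak of 2549 bp with 68 reads lay upstream. Between them was a gap of 586 bp that took in the first 508 bp of the gene, and the start was 79 bp from the nearer edge. The Hoxa9 start lay only 40 bp inside its peak. The contrast between starts thus rests on short distances to listed peak edges, whose precision is not stated. Flanks differed by side, with 96.1% of the upstream and 7.35% of the downstream 2 kb covered. The span with flanks held 17.6 reads per kb (14.4 to 21.3).

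Evx1 had the highest covered share and density of the 5. One peak of 9597 bp with 275 reads (244 to 310), 58th of the list by width and 50th by reads, covered the upstream flank, the start and 92.3% of the body (chr6:52313498-52318389). A second peak of 6400 bp with 122 reads began 460 bp beyond the 3′ end and was less dense, at 19.1 reads per kb of peak against 28.7. Over span and flanks the density was 24.3 reads per kb (21.2 to 27.8), and 33 protein-coding genes, Evx1 included, had a covered share as high. For the Hoxa genes the same count was 101 at Hoxa11, 135 at Hoxa13, 169 at Hoxa10 and 228 at Hoxa9.

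In order of density over span and flanks, Hoxa9 was followed by Hoxa10, Hoxa13, Hoxa11 and Evx1. The counting intervals of Hoxa9 and Hoxa10 overlapped, as did those of Hoxa13 and Hoxa11 and those of Hoxa11 and Evx1. Those of Hoxa10 and Hoxa13 did not, by a narrow margin (14.0 against 14.4). Of the 13 peaks, 3 touched the flanked spans of 2 genes each, so neighbouring values are not independent.

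**Figure D2:**
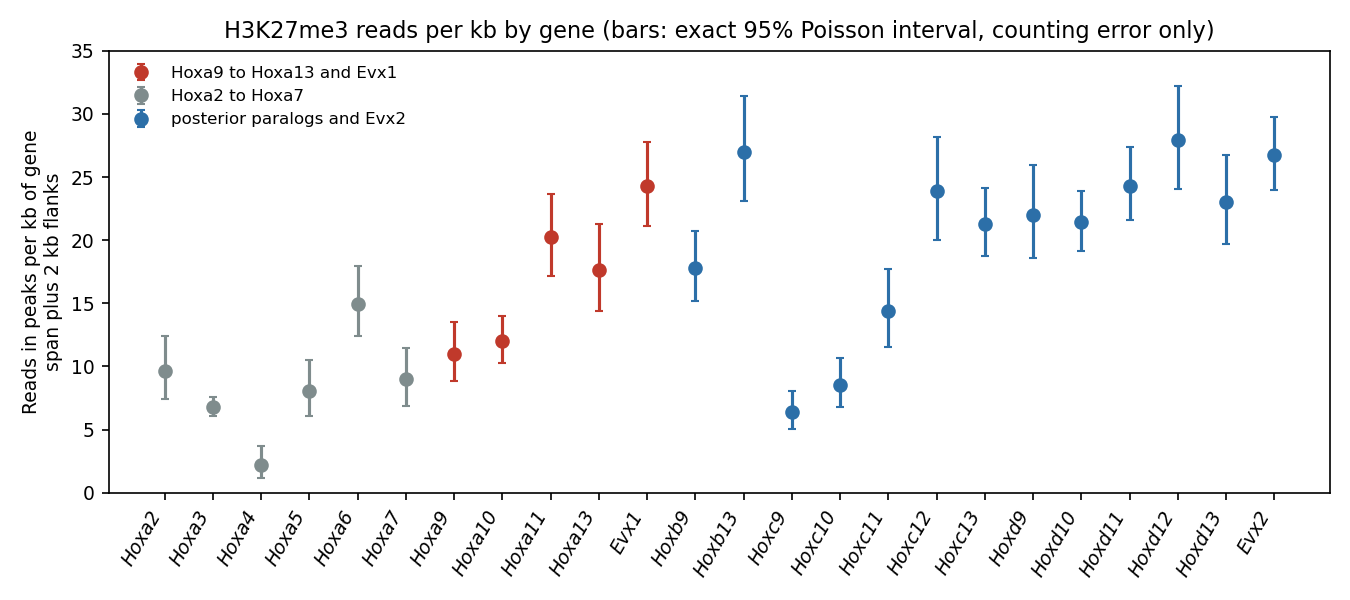
Reads in peaks per kb of gene span plus 2 kb flanks for 24 genes, with exact 95% Poisson intervals as bars. By point value, Hoxa11, Hoxa13 and Evx1 (red, 17.6 to 24.3) lie above the 6 genes from Hoxa2 to Hoxa7 (grey, 2.16 to 15.0). The interval of Hoxa6, 12.4 to 17.9, overlaps those of Hoxa11 and Hoxa13. Hoxa9 and Hoxa10 do not lie above all 6, and the paralogs (blue) range from 6.40 to 27.9.

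Starts differed in base composition. The Hoxa13 window had the most CG dinucleotides, 45 in 300 bases with 81.0% G and C, a count reached by 1.93% of the 32851 promoter windows in the table. It was followed by the inner Hoxa10 start with 21, Hoxa11 with 15, Evx1 and the outer Hoxa10 start with 12 each, and Hoxa9 with 4. The median was 7 over all windows and 17 over the 1306 windows that a peak touched. Of the outermost starts, 4 of 5 lay inside a peak, against 3.64% of all start sites. So did 3 of 5 anterior Hoxa starts in the table and 6 of 6 starts of Hoxd9 to Hoxd13 and Evx2. The anterior starts outside peaks, those of Hoxa5 and Hoxa7, were 155 and 139 bp from the nearest peak edge. Of the 635 windows with at least as many CG as Hoxa13, 31 had the start in a peak. That share is not below the 3.64% of all start sites. Whether base composition has a part in the gap at the Hoxa13 start was not tested.

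Of 3 other motifs searched on both strands, TATAAA was found in the inner Hoxa10 window alone (13.6% of all windows hold it). CCAAT occurred in that window and in the Hoxa13 window (37.4% of all windows), and GAGAG in the Hoxa9, Evx1 and both Hoxa10 windows (62.0%). None of the 3 contains CG. A match describes letters and shows no binding.

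**Figure D3:**
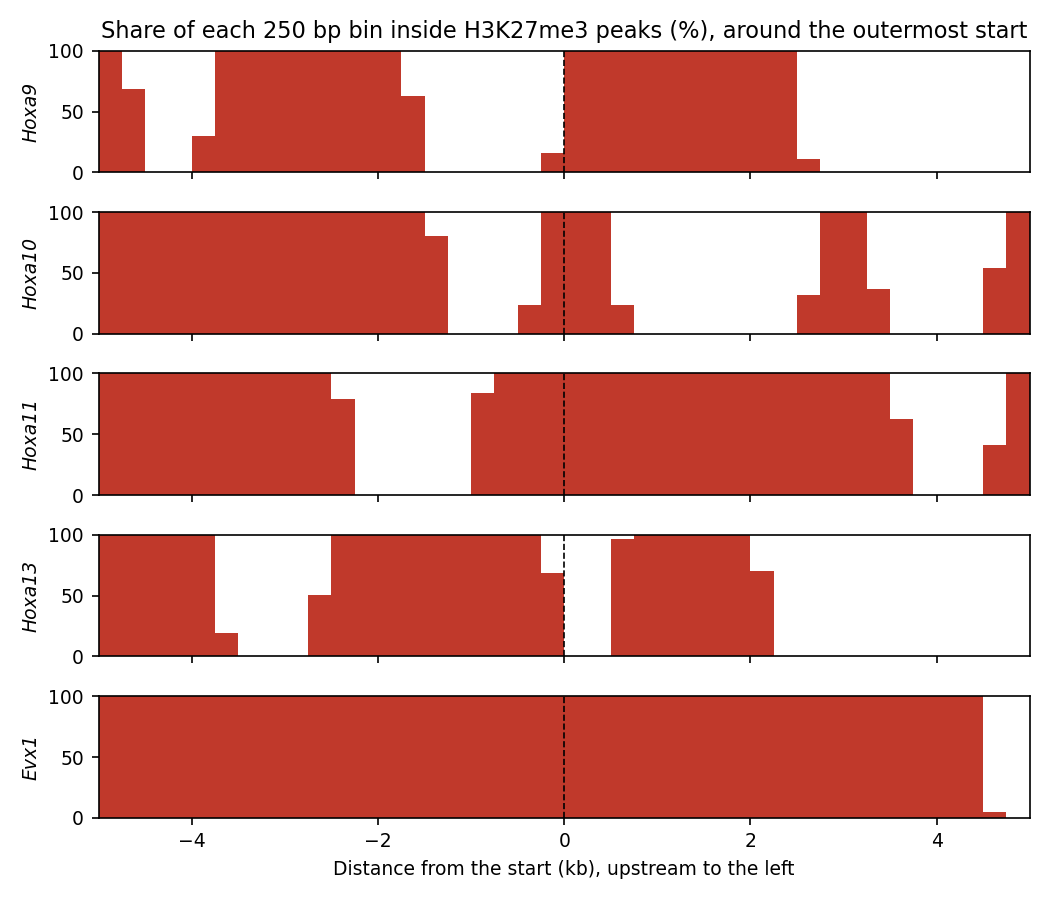
Share of each 250 bp bin inside peaks (%, vertical axis) against distance in kb from the outermost start of each gene, upstream to the left. Coverage begins near the start and runs into the gene at Hoxa9, spans the start at Hoxa10, Hoxa11 and Evx1, and is interrupted around the start at Hoxa13.

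Over all 4 intervals 54.1% of bases were covered, against 65.6% of the 5 gene bodies, and reads per kb were 13.6 against 18.3, a ratio of 0.743 (exact conditional 95% interval 0.664 to 0.833). Inside the Hoxa cluster the values were closer. The 3 intervals from Hoxa9 to Hoxa13 had 58.6% of 18118 bp covered and 15.8 reads per kb, and the 4 Hoxa bodies had 59.0% of 19666 bp covered and 16.3 reads per kb. The ratio of densities was 0.970 (0.824 to 1.14), so no difference was detectable beyond counting error. Single intervals varied. Hoxa9 to Hoxa10 had 59.3% of 3826 bp covered. Hoxa10 to Hoxa11, the shortest at 1250 bp, had 24.7% covered and 4.84 reads per kb (1.76 to 10.5), all from part of 1 peak. Hoxa11 to Hoxa13 had 61.6% of 13042 bp covered, mainly by a peak of 6425 bp with 179 reads, the widest that touches none of the 5 genes or their flanks. It starts 2303 bp beyond the Hoxa11 start.

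The Hoxa13 to Evx1 interval, 52617 bp long, was 52.6% covered and held 12.8 reads per kb (11.9 to 13.8), 0.788 of the density over the 4 Hoxa bodies (0.689 to 0.903). Coverage was highest at both ends. In windows of 10 kb counted from the Hoxa13 start, 83.0%, 60.7%, 22.4%, 21.5% and 62.9% of bases were covered, and the last 2617 bp before Evx1 were covered in full. Reads per kb in the same windows were 21.4, 14.9, 5.07, 4.83 and 13.8, then 28.7. The longest uncovered stretch between Hoxa9 and Evx1 lay here, 9648 bp (chr6:52293929-52303576), and a second of 5613 bp lay nearer Hoxa13. Merging peaks within 5 kb therefore leaves Evx1 in a domain of its own, 21672 bp with 3 peaks and 464 reads. At the same 5 kb, Hoxa9 to Hoxa13 share a domain of 78857 bp with Hoxa3, Hoxa5, Hoxa6 and Hoxa7. Merging within 10 kb joins Evx1 to that Hoxa domain, anterior genes included, at 122487 bp with 30 peaks and 1770 reads.

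Called peaks thinned out between Hoxa7 and Hoxa9, where 11.1% of 4523 bp was covered, with 2.21 reads per kb (1.06 to 4.07). On the far side of that interval the mark was present again, with 73.4% of the Hoxa7 body covered. Beyond Evx1 called peaks thinned out over a longer stretch. Past the second Evx1 peak no peak was listed for 132158 bp. In the 227840 bp from Evx1 to Hibadh, an enzyme gene of valine breakdown, the only other peak had 500 bp and 11 reads. Of 5 protein-coding neighbours of the cluster (Skap2, Snx10, Hibadh, Tax1bp1 and Jazf1), Skap2 alone met a peak (20%, against 10.5% of protein-coding genes, so the count is not below the general share), with 13 reads and 0.405% of its span with flanks covered.

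Non-coding genes from Hoxa9 to Evx1 lay largely within the same peaks. Evx1os, which starts inside Evx1 and runs the other way, was covered over 99.6% of its 6444 bp. Hottip, known for acting on posterior Hoxa genes from the tip of the cluster, was covered over 72.5%, Hoxa11os, antisense to Hoxa11, over 70.4%, and Gm52902, which overlaps the Hoxa10 end, over 53.0%. LOC115490410, inside the Hoxa11 span, was covered in full. The pseudogene Gm8129 and the non-coding 1700094M24Rik, both between Evx1 and Hibadh, met no peak. A ChIP peak has no strand, so the mark of overlapping genes cannot be told apart. The gene of miR-196b, of a microRNA family known to pair with Hox transcripts, lay wholly in the 2230 bp peak of 56 reads between Hoxa9 and Hoxa10. Its mature 5p strand is shown with the seed, bases 2 to 8, in capitals.
miR-196b-5p (chr6:52230129-52230150, minus strand): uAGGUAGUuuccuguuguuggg

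**Figure D4:**
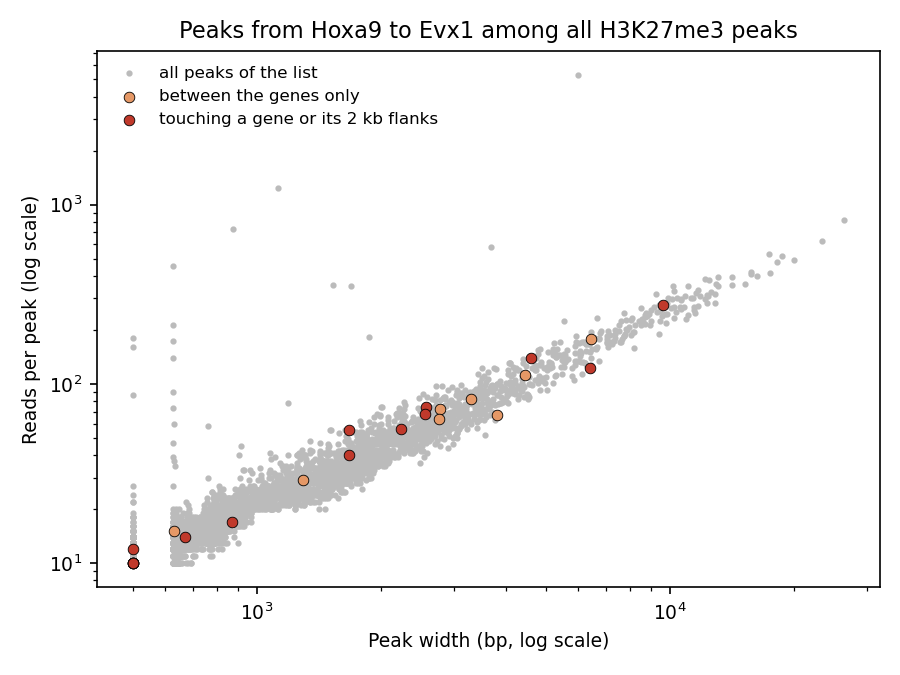
Reads against width in bp, both on log axes, for all 6018 peaks (grey) and the 24 from Hoxa9 to Evx1, red where they touch a gene or its 2 kb flanks and orange where they lie only between the genes. The 24 follow the trend of the list from 500 bp and 10 reads up to the Evx1 peak of 9597 bp and 275 reads.

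Within the Hoxa cluster, the posterior genes held more reads in called peaks than Hoxa2 to Hoxa7 in this library. Reads below the calling threshold are not seen, so the densities compare called peaks and not all of the mark. Hoxa9 to Hoxa13 spans with flanks had 14.5 reads per kb and Hoxa2 to Hoxa7 spans with flanks 7.36, a ratio of 1.97 (exact conditional 95% interval 1.73 to 2.25). More bases were covered, 53.6% against 36.1%, and covered bases held more reads, 27.1 against 20.4 per covered kb (ratio 1.33, interval 1.16 to 1.52). The annotated Hoxa3 span of 44009 bp contains Hoxa4, Hoxa5 and Hoxa6, so the anterior side also takes in bases between these genes. Over whole stretches, genes and intervals together, densities were 16.0 reads per kb from Hoxa9 to Hoxa13 and 7.85 from Hoxa2 to Hoxa7. Medians over single genes were 14.8 and 8.51. All 6 anterior genes also carried a peak. Gene by gene the groups overlapped, since Hoxa6 at 15.0 reads per kb stood above Hoxa9 and Hoxa10. Hoxa4 was lowest, at 2.16 reads per kb. The interval does not hold the variation between animals, and without replicates the difference could not be tested.

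Beside the same paralog groups in other clusters, the Hoxa genes lay below Hoxb and Hoxd and above Hoxc in most of the 11 pairs, each pair compared by its ratio of reads per kb with a counting interval and no adjustment. The ratio was below 1 with its interval in 5 pairs, above 1 in 3 and spanned 1 in 3. Hoxa9 stood at 0.499 of Hoxd9 (0.379 to 0.654), 0.618 of Hoxb9 (0.473 to 0.803) and 1.72 times Hoxc9 (1.25 to 2.37). Hoxa10 stood at 0.560 of Hoxd10 (0.461 to 0.678) and 1.40 times Hoxc10 (1.06 to 1.86).

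For Hoxa11 the ratio was 1.41 to Hoxc11 (1.08 to 1.84) and 0.832 to Hoxd11, whose interval of 0.679 to 1.02 spanned 1. Hoxa13 stood at 0.651 of Hoxb13 (0.506 to 0.835) and 0.763 of Hoxd13 (0.593 to 0.979), and its ratio to Hoxc13, 0.825 (0.651 to 1.04), spanned 1. Evx1 and Evx2 lie beyond the Hoxa13 and Hoxd13 ends of their clusters, Evx2 much nearer to its Hox neighbour. They held 24.3 and 26.8 reads per kb, with 90.6% and 92.4% covered. Their ratio of 0.909 had an interval of 0.762 to 1.08. The median covered share over the 13 paralogs was 83.2%, against 59.5% over the 5 genes, and 4 paralogs had the whole body covered.

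Genes outside the Hox clusters closest in reads per kb to each gene were taken from those with a flanked span within 25% of its length. For Evx1 (24.3 reads per kb) they were Nkx6-1, Sox1 and Pou3f3, transcription factor genes of the developing nervous system, at 24.4 each, with 87.9% to 98.5% covered. Among the closest to Hoxa11 were Neurog2 and Insm1 (20.27 and 19.99), and to Hoxa13 Neurog1, Cdk5r2 and Gsc (17.2 to 17.9). Osr1 and Slc17a7 were among the closest to Hoxa10 (12.1 and 11.9), and Acta1, Cldn7 and Ntf5 to Hoxa9 (10.8 to 11.1). The likeness rests on 1 library.

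Genes of the enzymes behind the mark and of Hox cofactors met peaks at shares near the 10.5% of protein-coding genes. Of 13 Polycomb complex and H3K27 demethylase genes, Jarid2 alone met a peak (7.69%), with 27 reads and 0.322% covered. Of 9 Hox cofactor genes of the Meis, Pbx and Pknox families, Meis2 alone did (11.1%), with 5 peaks of 196 reads in all and 3.65% covered. Among 13 markers of Schwann cells, fibroblasts and perineurial cells, endothelium and macrophages, Sox10, Mbp and Pdgfra met a peak (23.1%, against 10.5% of protein-coding genes), with 0.437% to 4.66% covered. The Schwann cell genes Sox10 and Mbp rested on 11 reads each. Of 3 muscle and fat markers, Acta1 and Myod1 met peaks (66.7%, against 10.5% of protein-coding genes), with 46.3% and 37.0% covered. Adipoq met none. The data hold no expression values, so the cell makeup of the nerve could not be checked by RNA.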

How the data were processed

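H3K27me3 ChIP-seq was done on sciatic nerve, with 1 ChIP and 1 input library. Per the submitters' processing notes, reads were aligned with Bowtie to mm10. How peaks were called, and what the input was used for, is not stated in those notes. The authors deposited 1 peak list with a score per peak of unstated unit. Dividing by 2.5735 brought 99.83% of the scores to whole numbers (within 0.05 on the score scale), and these whole numbers were read as reads. If the step is not 1 read, the read intervals do not hold. The lowest value was 10 reads. The list shows nothing below the calling threshold, so an uncovered base is one with no called peak, not one without the mark.

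Starts were read as 0-based BED and are given 1-based. Gene spans came from RefSeq GRCm38.p6, without exons. Reads of a peak were shared out by its bases inside a region. For the intervals such sums were rounded to whole reads, so the unknown place of reads within a peak is not covered. Overlap needed 1 bp. With 1 library no p-value was computed, and intervals are exact 95% Poisson or Clopper-Pearson intervals. The peak file was read with Python 3.11.15, NumPy 2.4.6 and SciPy 1.17.1, and overlap and intervals were tested on simulated data. Bases shared by posterior and anterior Hoxa spans were left out of their ratio.

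Genes and lists were chosen with earlier results of these data known. Named genes were the 5 members, Hoxa2 to Hoxa7, 13 posterior paralogs with Evx2, all annotated genes from Hoxa7 to Hibadh, 3 genes per member closest in density, and 8 lists (Polycomb, cofactors, neighbours and 5 sets of cell type markers). Alternatives varied the flank, the peaks used, the overlap rule and the merging distance. Some genes that the plan takes are not reported here, and they were left out of the groups and ratios. The planned protein comparison was not run.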

Additional observations from a re-analysis of the deposited data

How the results depend on the processing

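All 5 genes kept a peak under each alternative tried except the demand that at least 50% of the span be covered, which 4 met. The density ratio of posterior to anterior Hoxa spans stayed above 1 throughout, at 1.97 to 2.21. Leaving out the widest peak could not change this ratio, since that peak touches none of its Hoxa spans. The covered share of the 5 spans, 61.5%, became 65.6%, 62.2% and 63.6% with flanks of 0, 1 and 5 kb, 58.3% with only the 3061 peaks scoring no lower than the median, 54.6% with the 2125 peaks of at least 20 reads and 45.8% without the widest peak, which lies over Evx1. For the intervals, 54.1% became 52.0%, 50.7% and 46.9% under the last 3 of these. For the paralogs, 76.5% became 74.0%, 78.4% and 69.8% with flanks of 0, 1 and 5 kb and 75.2% with either restriction of peaks. The domain that holds Evx1 was 16835 bp wide with peaks merged within 1 kb and 122487 bp within 10 kb, against 21672 bp within 5 kb, settings added after seeing the data. Depth limits the narrow peaks, of which 5 in the stretch held 10 reads, the lowest value of the list. No paired analysis was possible because the series has 1 ChIP library and its peak list gives no value for the input.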
